A study of Mus musculus with 6 samples.

Results

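Egr1, Egr2 and Egr3, Nr4a1, Nr4a2 and Nr4a3, the corepressor genes Nab1 and Nab2, and Myc were followed through every library of a comparison of splenic follicular B cells from control and G9gl mice. These 9 genes were chosen by symbol as early antigen receptor response factors and their regulators, and all 9 were found among the 24346 gene symbols of the tables. Levels are in FPKM, fragments per kilobase of transcript relative to all mapped fragments, so that genes of different length can be compared. A gene was tested if 3 or more libraries reached 1 FPKM. This held for 7 of the 9, among 10122 genes in all, while Nr4a2 and Nr4a3 stayed under that limit. The WT group was 3 libraries from C57BL/6 (B6) control mice, and the G9gl group 3 libraries from G9gl HL homozygous mice. In these mice the knocked-in heavy and light chain genes (HL) give B cells the unmutated form of an antibody to double-stranded DNA that was found in lupus. All mice were 8 weeks old. Cells were sorted as B220+ CD93- CD21lo CD23hi, a gate that leaves out CD93+ immature cells and cells high in CD21. Whether each library came from its own animal is not stated, so that every p-value speaks of the spread between libraries, part or all of which may be technical.

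Egr proteins are zinc finger transcription factors whose genes are switched on within minutes of antigen receptor engagement, through ERK kinases and the serum response factor SRF. Nab1 and Nab2 bind Egr1, Egr2 and Egr3 and repress transcription with them, and Nab2 is itself induced by Egr factors, so that the pathway carries its own brake. The Nr4a genes encode orphan nuclear receptors of the same early wave, and Nr4a1, whose product is Nur77, is widely used as a reporter of antigen receptor signalling. Myc drives growth and ribosome production after B cell activation. In lymphocytes Egr2, Egr3 and Nr4a factors have been tied to both activation and tolerance, and anergy, the state that the comparison was set up to study, is one form of tolerance.

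Sequence in front of the start sites shows which of these genes carry motifs for the factors of this pathway. RefSeq windows (GRCm38.p6, the assembly named mm10) of the 250 bases before a transcript start were found for 6 of the 9 genes. They were searched on both strands for the CArG box bound by SRF, the EGR motifs GCGTGGGCG and GCGGGGGCG, the cyclic AMP response element TGACGTCA, the Nr4a motif AAAGGTCA and the E-box CACGTG, which Myc binds. No match shown overlapped another. The first sequence is the Egr2 window at chr10:67537619-67537868 (plus strand), shown because Egr2 rose most, with its CArG box in capitals, 72 bases before the start. The other full window is that of Nr4a1 at chr15:101266596-101266845 (plus strand), with an EGR match in capitals. It is shown because Nr4a1 varied most between libraries among the tested genes of the set.
Egr2: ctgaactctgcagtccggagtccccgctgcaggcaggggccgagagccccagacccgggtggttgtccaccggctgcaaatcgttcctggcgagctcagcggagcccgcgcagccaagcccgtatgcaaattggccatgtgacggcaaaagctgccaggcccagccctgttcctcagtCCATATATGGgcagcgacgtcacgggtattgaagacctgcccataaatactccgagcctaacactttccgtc
Nr4a1: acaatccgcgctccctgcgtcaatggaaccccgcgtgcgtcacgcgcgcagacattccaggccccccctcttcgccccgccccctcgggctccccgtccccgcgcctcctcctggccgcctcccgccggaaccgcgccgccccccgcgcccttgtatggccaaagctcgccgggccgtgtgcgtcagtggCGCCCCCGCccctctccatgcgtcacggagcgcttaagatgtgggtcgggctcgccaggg

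A second Egr2 start had another CArG box, 72 bases before it (chr10:67537484-67537513, plus strand). Nab1, on the minus strand, held 3 EGR matches, in capitals below with 10 bases to each side (chr1:52500571-52500599, chr1:52500539-52500567 and chr1:52500468-52500496). They are shown because Nab1 was the one gene of the set that was called lower.
Egr2 second CArG box: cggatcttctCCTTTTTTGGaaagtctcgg
Nab1 first EGR match: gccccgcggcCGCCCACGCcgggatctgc
Nab1 second EGR match: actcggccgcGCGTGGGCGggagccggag
Nab1 EGR match nearest the start: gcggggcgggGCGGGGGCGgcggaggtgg

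Over 32851 RefSeq windows of the same length, 1.47% held a CArG box, 0.536% GCGTGGGCG and 2.57% GCGGGGGCG. These shares are not matched for base composition, and the Nab1 and Nr4a1 windows were 80.8% and 74.4% G and C. An upstream Egr2 window also held CACGTG, which 6.02% of all windows held. TGACGTCA and AAAGGTCA, held by 1.55% and 1.34% of all windows, were in no window of these genes. The windows of Nab2, Nr4a2 and Nr4a3 held none of the motifs searched. A match is a description of the letters in a window, and the files hold no measure of binding.

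Egr1 and Egr2 rose in G9gl, Myc rose by a smaller amount, Nab1 fell, and Egr3, Nr4a1 and Nab2 did not pass the test. That is 3 of 7 tested genes called higher and 1 called lower (limma, Benjamini-Hochberg adjusted p under 0.05 over all 10122 genes), where 11.8% of all tested genes were called higher and 11.6% lower. For 3 of the 7 genes every G9gl library lay above every WT library, against 20.3% of all tested genes, and for 1 every G9gl library lay below, against 20.5%. In bulk samples fewer cells of a type and less RNA per cell cannot be told apart.

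**Figure D1:**
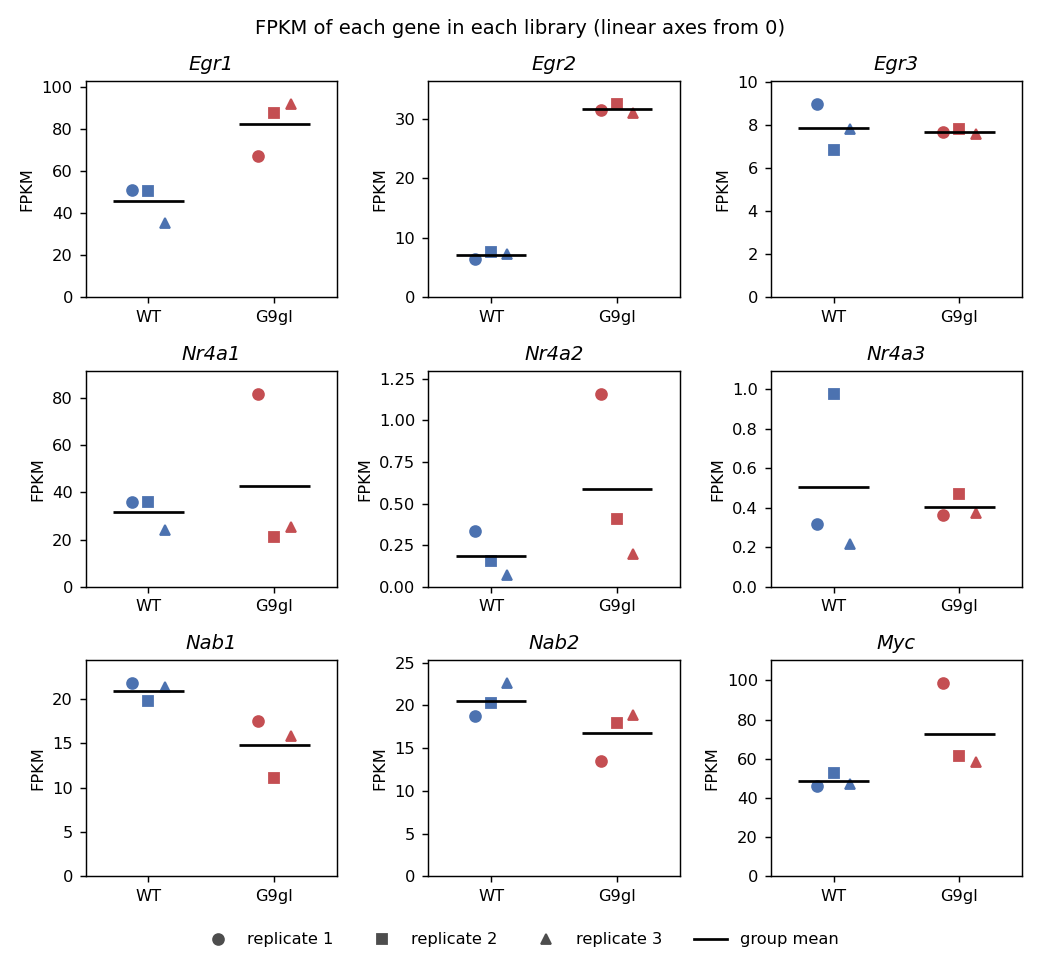
FPKM (linear axes from 0) of the 9 genes in each library, with 3 WT libraries in blue and 3 G9gl libraries in red, marker shapes for replicate numbers and black bars for group means. Egr2 stands at 31.0 to 32.4 in G9gl against 6.49 to 7.51 in WT, while Nr4a1 and Myc are high in G9gl replicate 1.

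Egr2 (ENSMUSG00000037868.15, chromosome 10, 67535475 to 67542188, plus strand) encodes the factor also called Krox20. Its level was 6.49, 7.51 and 7.32 FPKM in WT replicates 1 to 3. In G9gl replicates 1 to 3 it was 31.5, 32.4 and 31.0 FPKM. The groups were far apart and each was tight, with a coefficient of variation of 7.63% in WT and 2.33% in G9gl. The log2 fold change was 2.01 ± 0.081 (SE), that is 4.03-fold with a 95% confidence interval of 3.56 to 4.57 and a limma adjusted p of 8.7e-07. Only 24 of the 10122 tested genes had a larger log2 fold change. The values rest on about 198 to 222 fragments per WT library and 882 to 1082 per G9gl library, estimated from the longest coding transcript.

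Egr1 (ENSMUSG00000038418.7, chromosome 18, 34859823 to 34864984, plus strand) is the most abundant Egr gene in both groups. It measured 51.1, 50.5 and 35.4 FPKM in WT replicates 1 to 3. It measured 67.4, 87.6 and 91.9 FPKM in G9gl replicates 1 to 3. The groups did not overlap, and the lowest library of each group, WT replicate 3 and G9gl replicate 1, stood somewhat apart from its partners. The rise was 1.79-fold (95% confidence interval 1.41 to 2.27, log2 fold change 0.84 ± 0.15 SE, limma adjusted p 0.0039). It passed under all 16 alternative settings tried, with adjusted p from 0.00093 to 0.029.

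Egr3 (ENSMUSG00000033730.4, chromosome 14, 70077203 to 70082614, plus strand), the close relative of Egr2, was not called. It stood at 8.97, 6.83 and 7.80 FPKM in WT replicates 1 to 3. In the G9gl replicates it stood at 7.66, 7.80 and 7.60 FPKM. All G9gl values lay within the WT range, and the 95% confidence interval of the change was 0.833-fold to 1.16-fold (limma adjusted p 0.90). Egr4, the remaining gene of the family, was listed at 0 in all 6 libraries.

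The Egr genes were also compared with each other within each library, as plain ratios of FPKM, which do not depend on how libraries were scaled. The tests were run on log2 ratios of FPKM + 1, and the same differences without that pseudocount, added after the data were seen, are given beside them. In WT, Egr2 and Egr3 were near parity, with Egr2 to Egr3 ratios of 0.723, 1.10 and 0.938 in replicates 1 to 3. In G9gl the ratio was 4.11, 4.16 and 4.08. The difference in log2 ratio was 2.03 with the pseudocount and 2.18 without it. The exact permutation test, two-sided, gave p = 0.10 for both, the smallest that 3 against 3 libraries allow, and the first was 0.15 adjusted over the 3 ratios tested. The Egr2 to Egr1 ratio was 0.127, 0.149 and 0.207 in WT and 0.467, 0.370 and 0.337 in G9gl, a difference in log2 ratio of 1.17 with the pseudocount (exact permutation p = 0.10, adjusted 0.15) and 1.30 without it (exact permutation p = 0.10). Egr2 thus made up 11.9% ± 2.39 of the summed FPKM of the 3 Egr genes in WT and 26.2% ± 2.99 in G9gl (SD, n = 3 per group), and the ranges did not overlap. Egr1 made up 74.9% ± 4.23 and 67.4% ± 3.72, with overlapping ranges.

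Of the corepressor genes Nab1 fell, and Nab2 had a lower mean without passing the test. Nab1 (ENSMUSG00000002881.14, chromosome 1, 52457294 to 52500679, minus strand) was at 21.7, 19.7 and 21.3 FPKM in WT replicates 1 to 3. In G9gl replicates 1 to 3 it was at 17.5, 11.0 and 15.8 FPKM. The groups did not overlap, with G9gl replicate 2 lowest and a G9gl coefficient of variation of 22.6% against 5.13% in WT. Nab1 fell 1.41-fold (log2 fold change -0.50 ± 0.14 SE, limma adjusted p 0.033). The call was lost without WT replicate 1, 2 or 3 (adjusted p 0.094, 0.067 and 0.087), and without G9gl replicate 2 (0.050, with a log2 fold change of -0.32). It was also lost when low genes were not filtered out (0.11).

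Nab2 (ENSMUSG00000025402.12, chromosome 10, 127660918 to 127668568, minus strand) was not called. Its WT values were 18.8, 20.3 and 22.6 FPKM in replicates 1 to 3. Its G9gl values were 13.5, 17.9 and 18.9 FPKM. The groups overlapped by a narrow margin, since G9gl replicate 3 lay just above WT replicate 1. The log2 fold change was -0.29 ± 0.12 SE with a limma adjusted p of 0.12. Rescaling each library to the same total (TPM), which moved the median of all tested genes by about -0.12 on the log2 scale, gave -0.42 and a call as lower (adjusted p 0.033). The exons of Nab2 share 40 bases with those of Stat6 and 151 with those of Nemp1, both on the opposite strand, and 1050 bases with the antisense gene Gm16229. The library kit keeps no strand, so fragments there cannot be assigned to one gene. Stat6 stood at 152 to 170 FPKM in WT and 130 to 141 FPKM in G9gl.

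The ratio of Nab2 to Nab1 was 0.863, 1.03 and 1.06 in WT replicates 1 to 3 and 0.770, 1.62 and 1.20 in G9gl, so the G9gl libraries surrounded the WT ones (difference in log2 ratio of FPKM + 1 0.21, exact permutation p = 0.50, adjusted 0.50). Summed over the family, Egr1, Egr2 and Egr3 reached 66.6, 64.9 and 50.5 FPKM in WT and 106 to 130 FPKM in G9gl. Nab1 and Nab2 together gave 40.0 to 43.9 FPKM in WT and 28.9 to 34.6 FPKM in G9gl. The activator to corepressor ratio was therefore 1.64, 1.62 and 1.15 in the WT libraries and 3.44, 4.42 and 3.77 in the G9gl libraries, with a gap between the groups. This ratio was formed after the values had been seen and was not tested.

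**Figure D2:**
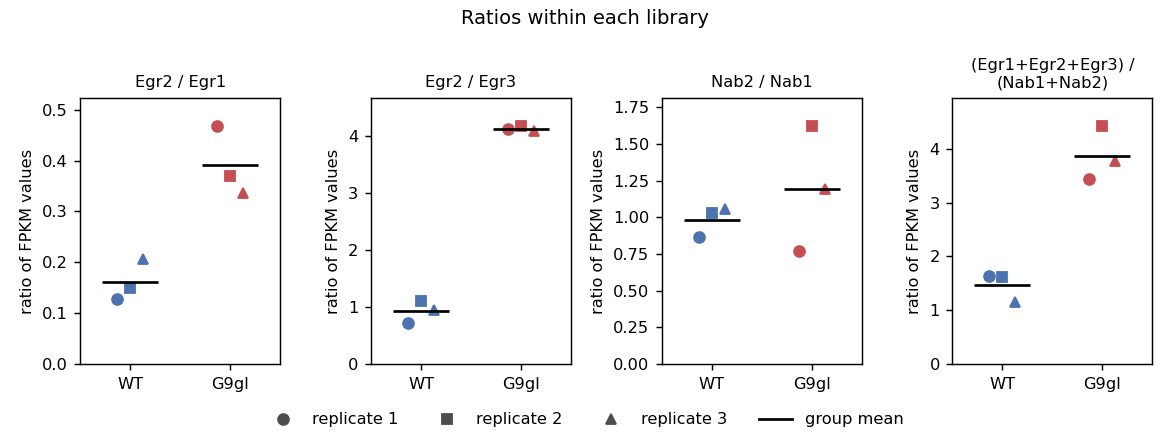
Ratios of FPKM values within each library (linear axes from 0), with WT in blue, G9gl in red, marker shapes for replicate numbers and black bars for group means. The Egr2 to Egr3 ratio is near 4.1 in all 3 G9gl libraries and between 0.723 and 1.10 in WT, whereas the Nab2 to Nab1 ratios of the groups overlap.

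Nr4a1 (ENSMUSG00000023034.7, chromosome 15, 101254269 to 101274795, plus strand) gave a different picture, with a single library setting its G9gl mean. It was at 35.9, 35.8 and 24.0 FPKM in WT replicates 1 to 3. In G9gl it was at 81.8 FPKM in replicate 1 and at 21.2 and 25.1 FPKM in replicates 2 and 3. G9gl replicate 1 was 3.44-fold above the mean of its partners on the log2(FPKM + 1) scale, and those partners lay within or below the WT range. The coefficient of variation in G9gl was 79.4%, higher than in 99.6% of tested genes, whose median was 7.67%. The log2 fold change was 0.17 ± 0.41 SE (95% confidence interval 0.590-fold to 2.14-fold, limma adjusted p 0.80). Without G9gl replicate 1 it was -0.43 and did not pass either (adjusted p 0.088).

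Nr4a2 (chromosome 2, 57106830 to 57124003, minus strand) and Nr4a3 (chromosome 4, 48045153 to 48086447, plus strand) encode the related receptors Nurr1 and Nor1 and were close to the detection limit. Nr4a2 gave 0.335, 0.157 and 0.0688 FPKM in WT replicates 1 to 3 and 1.16, 0.410 and 0.195 FPKM in G9gl. Its highest library was again G9gl replicate 1, with about 44 fragments, against 2 to 17 in the others. Nr4a3 gave 0.318, 0.977 and 0.214 FPKM in WT and 0.365, 0.469 and 0.372 FPKM in G9gl, so the WT range enclosed the G9gl range. Nr4a1 supplied 96.0% to 98.8% of the summed Nr4a FPKM in every library. When low genes were not filtered out, neither Nr4a2 nor Nr4a3 was called (limma adjusted p 0.36 and 0.84).

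The balance of Nr4a1 to Egr1 was steady over the WT libraries and uneven over the G9gl libraries. The ratio of Nr4a1 to Egr1 was 0.703, 0.708 and 0.679 in WT replicates 1 to 3, a narrow band that held although both genes were lower in replicate 3. In G9gl it was 1.21 in replicate 1 and 0.242 and 0.274 in replicates 2 and 3. The library with the highest Nr4a1 was thus the G9gl library with the lowest Egr1. This ratio, too, was formed after the values had been seen and was not tested.

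Myc (ENSMUSG00000022346.15, chromosome 15, 61985391 to 61990374, plus strand) shared part of this pattern. It was at 46.1, 52.6 and 47.1 FPKM in WT replicates 1 to 3. In G9gl replicate 1 it was at 98.4 FPKM and in replicates 2 and 3 at 61.5 and 58.2 FPKM. All G9gl libraries lay above all WT libraries, with replicate 1 well above its partners. The rise was 1.45-fold (95% confidence interval 1.11 to 1.88, log2 fold change 0.53 ± 0.17 SE, limma adjusted p 0.047), and the call was lost in 8 of 16 alternative settings. Those were the fits without WT replicate 1, 2 or 3 (adjusted p 0.13, 0.082 and 0.12), with low genes kept (0.15), and with quantile normalization (0.053), TPM (0.087), library weights (0.058) or a robust fit (0.12). Without G9gl replicate 1 the log2 fold change was smaller, at 0.30, but the call stood.

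The share of all tested genes that was called moved with the setting too, and the calls above are read against it. Called higher were 7.21% with TPM, 5.07% with low genes kept and 10.2% with quantile normalization, and called lower were 24.7%, 4.11% and 11.3%. Leaving out WT replicate 1, 2 or 3 gave 9.49%, 8.26% and 9.86% higher and 8.61%, 6.86% and 8.59% lower. Leaving out G9gl replicate 1, 2 or 3 gave 10.8%, 7.93% and 8.67% higher and 11.8%, 7.94% and 8.26% lower. Of the 7 genes, 2 or 3 were called higher and 0, 1 or 2 lower under these settings.

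**Figure D3:**
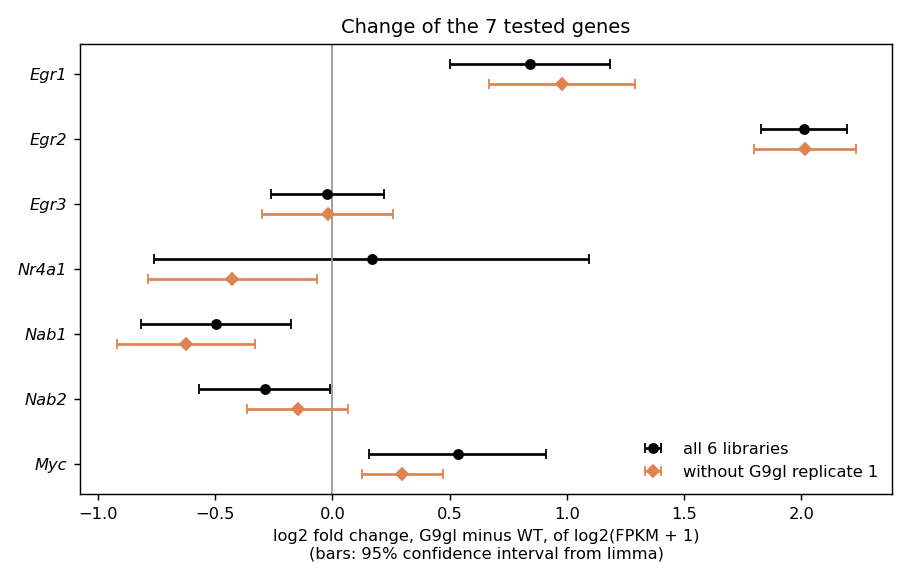
Log2 fold change (G9gl minus WT, on log2(FPKM + 1)) of the 7 tested genes with 95% confidence intervals from limma, for all 6 libraries (black circles) and without G9gl replicate 1 (orange diamonds). Egr2 stays at 2.01 in both, Nr4a1 goes from 0.17 to -0.43 and Myc from 0.53 to 0.30.

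In level the order within WT was Myc, Egr1, Nr4a1, Nab1, Nab2, Egr3, Egr2, Nr4a3 and Nr4a2. Myc at 48.6 ± 3.48 and Egr1 at 45.7 ± 8.90 FPKM did not differ beyond their spread, nor did Nab1 at 20.9 ± 1.07 and Nab2 at 20.5 ± 1.91 or Egr3 at 7.87 ± 1.07 and Egr2 at 7.10 ± 0.542 FPKM (SD, n = 3). In G9gl the order was Egr1, Myc, Nr4a1, Egr2, Nab2, Nab1, Egr3, Nr4a2 and Nr4a3. Egr2, at 31.6 ± 0.738 FPKM, stood above both Nab genes (16.7 ± 2.88 and 14.8 ± 3.33) there, whereas in WT it stood below both. Egr1 and Myc (82.3 ± 13.1 and 72.7 ± 22.3 FPKM) did not differ beyond their spread in G9gl, nor did Nab2 and Nab1, and Nr4a1, at 42.7 ± 33.9 FPKM, overlapped with Myc above it and Egr2 below it.

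The genes whose profile over the 6 libraries was most like each of these were sought among 740 tested genes with a mean of at least 5 FPKM and a standard deviation of log2(FPKM + 1) of at least 0.3. Likeness was the mean absolute difference between profiles centred and scaled to unit SD. For Egr2 the closest were Socs1 (0.024), Csrp1 (0.033), Lrmp (0.035) and H2-Eb1 (0.045), against a median of 1.33 over the genes compared. Socs1, a feedback inhibitor of cytokine signalling, stood at 4.79 to 5.93 FPKM in WT and 22.6 to 23.6 FPKM in G9gl. For Nr4a1 they were the prostaglandin receptor gene Ptger4 (0.092), Trp53inp2 (0.19), the transcription factor gene Cebpb (0.27) and the ERK phosphatase gene Dusp5 (0.29). For Myc they were Dock10 (0.18), B3gnt7 (0.18), Gadd45g (0.19) and the beta globin gene Hbb-b2 (0.22). Globin transcripts come from red cell precursors, and Hba-a1 was at 205 FPKM in G9gl replicate 1, at 67.5 and 29.7 in replicates 2 and 3 and at 25.8 to 42.7 in WT. Of 4 tested granulocyte and erythroid markers 3 stood at least 1.5-fold above both partners in that library, the others being the granulocyte genes S100a8 (19.2 FPKM against 10.3 and 10.4) and S100a9 (8.71 against 1.57 and 5.35). Summed over 10 such markers, none at 0 in all libraries, G9gl replicates 1 to 3 held 256, 87.4 and 56.3 FPKM and WT 41.4 to 60.6. The part of such cells in the Myc and Nr4a1 values was not tested.

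Other early response genes were set beside these 9, to show which of them shared the high library of Nr4a1 and Myc. Of 44 tested genes on the list, 14 rose, 7 fell and 23 did not pass, with a median log2 fold change of 0.25 against -0.0022 over all tested genes. Among all tested genes 11.8% were called higher and 11.6% lower. The chemokine gene Ccl4 rose 7.62-fold and the activation marker gene Cd83 2.09-fold. Ccl3, another chemokine gene counted as higher, reached the limit for testing only through its G9gl libraries, with 0.332 to 0.920 FPKM in WT and 5.19 to 6.88 FPKM in G9gl. The same held for Spry2, also counted as higher, with 0.301 to 0.574 FPKM in WT and 1.33 to 1.76 FPKM in G9gl. Dusp4, an ERK phosphatase gene, rose from 7.89 ± 0.475 to 16.8 ± 1.25 FPKM. Btg2, an antiproliferative gene, fell 1.76-fold, the immediate early gene Ier5 1.37-fold, the NF-kB regulator gene Nfkbid 1.55-fold and Irf4, a factor of B cell differentiation, 1.44-fold. Leaving Ccl3 and Spry2 aside, limma adjusted p for these 7 ran from 6.3e-06 for Ccl4 to 0.0024 for Nfkbid.

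G9gl replicate 1 exceeded both of its partners by at least 1.5-fold (in FPKM + 1) in 13 of these 44 genes and in 2 of the 7 tested genes of the set, Nr4a1 and Myc, against 1.03% of all tested genes. Those 13 included Cd69, Dusp1, Fosb, Junb, Klf4, Ppp1r15a, Rgs1 and Sik1. Dusp1, another phosphatase gene of MAP kinases, was at 206 FPKM in G9gl replicate 1 and at 115 and 121 in replicates 2 and 3, and at 114, 100 and 54.1 in WT. Cd69 was at 264, 134 and 137 FPKM in the G9gl replicates and at 131, 107 and 70.7 in WT. Neither gene passed the test (limma adjusted p 0.091 and 0.074). WT replicate 3 was at least 1.5-fold below both partners in 7 of the 44 genes (Cd69, Dusp1, Fos, Fosb, Jun, Klf4 and Rgs1), against 0.484% of all tested genes. Egr1 and Nr4a1 were also lowest there among the WT libraries.

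**Figure D4:**
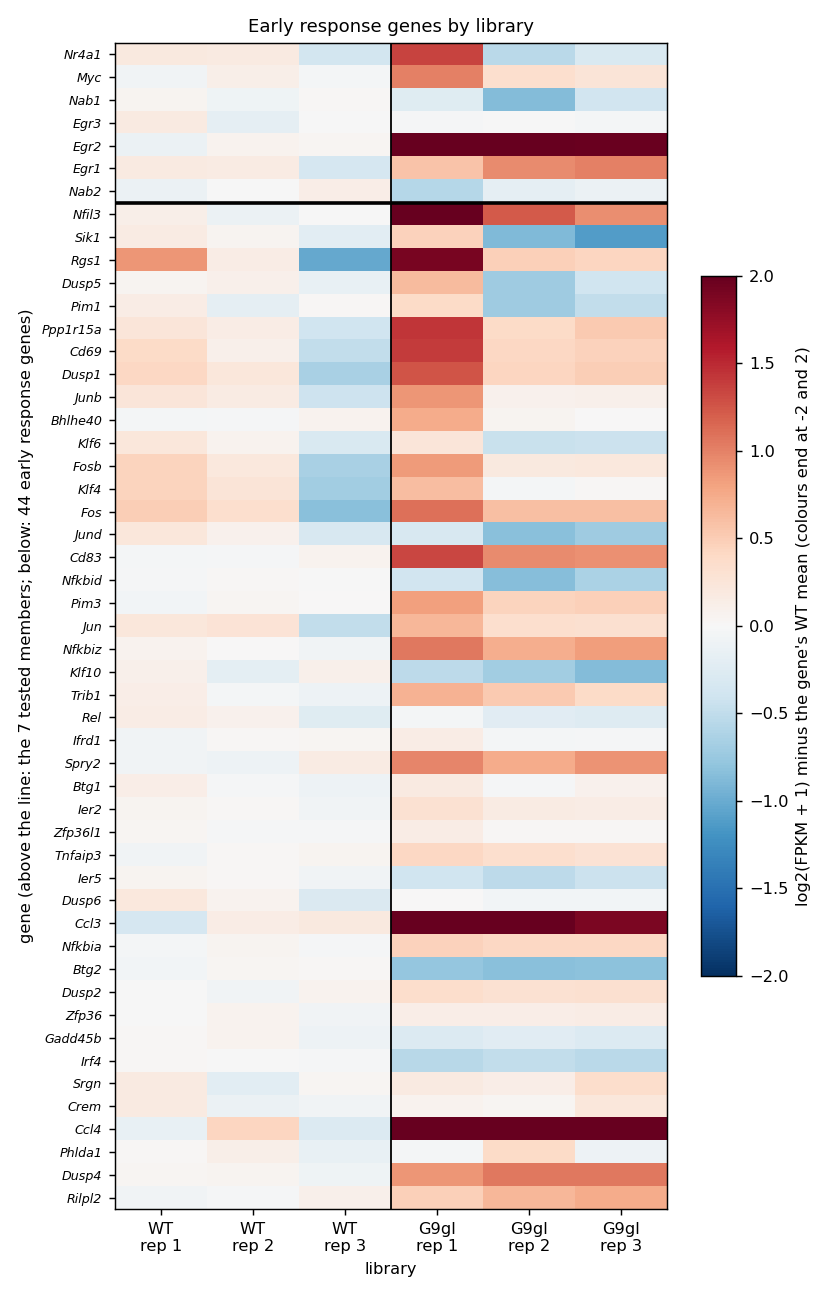
Difference of log2(FPKM + 1) from each gene's WT mean (colour, ending at -2 and 2) for the 7 tested genes of the set (above the line) and 44 other early response genes (below it) in the 6 libraries, ordered by how far G9gl replicate 1 stands above its partners. Nr4a1 and Myc share the red column of G9gl replicate 1, while Egr2 is equally red in all 3 G9gl libraries and Egr3 is pale throughout.

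Genes induced by tissue dissociation overlap with the early wave and were counted as well. Of 20 tested, 9 rose and 2 fell, with a median log2 fold change of 0.38, and 5 rose with quantile normalization or TPM. The shares of all tested genes were 11.8% higher and 11.6% lower, with 10.2% higher under quantile normalization and 7.21% under TPM. With the replicate number as a block 13 of the 20 rose, where 10.3% of all tested genes did. In 4 of the 20, Dusp1, Junb, Ppp1r15a and Socs3, G9gl replicate 1 stood at least 1.5-fold above both partners, against 1.03% of all tested genes. Of these 4, 3 are also on the early response list. The part of cell handling in the values of Nr4a1 and Myc was not tested. Without G9gl replicate 1 the early response list had 11 genes higher and 10 lower of 42 tested, with a median of 0.15. That fit called 10.8% of all tested genes higher and 11.8% lower. The lower genes of the list then included Sik1, Pim1, Dusp5 and Klf6, which had not passed with all libraries.

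Upstream of Egr and Nr4a genes, the kinases, Ras activators and factors that carry ERK, SRF and calcium signals were counted. Of 28 tested, 2 rose, 7 fell and 19 did not pass (median log2 fold change -0.15), where 11.8% of all tested genes were called higher and 11.6% lower. With TPM 1 rose and 13 fell, where 7.21% and 24.7% of all tested genes did. Rasgrp3, a Ras activator gene of B cells, rose 1.43-fold and Mef2c, a calcium-responsive factor gene, 1.19-fold. Nfatc3 fell 1.53-fold, Rasgrp1, the related Ras activator gene, 1.47-fold, Mef2d 1.30-fold and the ribosomal S6 kinase gene Rps6ka1 1.36-fold.

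Downstream, genes tied to Egr2 and Egr3 in anergic T cells went both ways. Of 14 tested, 3 rose, 6 fell and 5 did not pass (median -0.12), and 3 fell without WT replicate 1 or without G9gl replicate 2. All tested genes gave 11.8% higher and 11.6% lower, and 8.61% and 7.94% lower without those libraries. Socs1 rose 3.79-fold (limma adjusted p 2.7e-06) and Ndrg1, a stress-responsive gene, 4.71-fold. The third, the inhibitory receptor gene Lag3, was tested only because its G9gl libraries reached the limit, with at most 0.0548 FPKM in WT and 1.45 to 2.19 FPKM in G9gl, and 2 rose when 5 FPKM was required. The ubiquitin ligase gene Cblb, a brake on receptor signals, fell 1.74-fold, and the diacylglycerol kinase genes Dgkz and Dgka fell 1.23-fold and 1.15-fold. The cell cycle inhibitor gene Cdkn1b fell 1.30-fold.

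Among genes linked to Nr4a factors, as targets, dimer partners or corepressors, 3 of 15 tested rose, 6 fell and 6 did not pass (median -0.14). The shares over all tested genes were 11.8% higher and 11.6% lower. Batf, an AP-1 family factor gene, rose 2.29-fold, Ldha, a glycolysis gene, 1.35-fold and the adhesion molecule gene Icam1 1.27-fold (limma adjusted p 0.045). Icam1 lost its call with TPM, low genes kept or a replicate block, and without WT replicate 1 or 2 or any one G9gl library. Rcor1, which encodes the corepressor CoREST, fell 2.70-fold, from 24.7 ± 2.96 to 8.53 ± 1.51 FPKM (limma adjusted p 8.1e-05). Rxrb, the gene of a retinoid X receptor, fell 1.35-fold and the costimulatory ligand gene Cd86 1.43-fold.

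Cofactors of Nab and Egr proteins, chiefly subunits of the NuRD chromatin remodelling complex to which Nab2 binds, had 1 of 20 tested genes higher and 6 lower (median -0.14). Over all tested genes 11.8% were called higher and 11.6% lower. The histone deacetylase gene Hdac1 rose 1.22-fold, and the zinc finger factor gene Sp3, the remodeller gene Chd4, the NuRD subunit gene Gatad2a and the acetyltransferase gene Ep300 fell 1.24-fold, 1.26-fold, 1.26-fold and 1.17-fold. That number of lower genes dropped to 1 when WT replicate 2 or G9gl replicate 3 was left out, to 2 when WT replicate 1 or G9gl replicate 2 was, and to 3 with low genes kept. In that order 6.86%, 8.26%, 8.61%, 7.94% and 4.11% of all tested genes were called lower.

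Myc acts as a dimer with Max, and Max rose 1.44-fold, from 31.1 ± 6.53 to 44.6 ± 4.28 FPKM (limma adjusted p 0.024). With all 6 libraries and no rescaling or weights it was the 1 called gene among 17 tested of the Myc and Max network, but it was not called with TPM, with low genes kept, or without G9gl replicate 2 or 3. Bin1, which encodes a Myc-binding protein, was called lower with quantile normalization, library weights or TPM, and Mlxip and Usp28 were called lower with TPM. Of 35 Myc target genes, 14 rose, 2 fell and 19 did not pass (median 0.17), but 6 rose with TPM, 7 with low genes kept and 8 without WT replicate 2. With the main settings 11.8% of all tested genes were called higher and 11.6% lower. Under those alternatives 7.21%, 5.07% and 8.26% were called higher, in that order. Ldha, the nucleolar gene Npm1, the nucleotide kinase gene Nme1 and the cell cycle kinase gene Cdk4 rose 1.35-fold, 1.29-fold, 1.25-fold and 1.28-fold. Tfrc, the transferrin receptor gene, and E2f2, a cell cycle factor gene, fell 1.56-fold and 1.47-fold.

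As a check of the labels, summed FPKM of 9 B cell markers was 8380 to 8684 in WT and 7618 to 8021 in G9gl. Of these 9, 1 rose and 5 fell, most of all Cr2, the gene of the CD21 used in the gate, 2.13-fold. Here and for the marker counts below, the shares over all tested genes were 11.8% higher and 11.6% lower. Marginal zone and transitional B cell markers summed to 1020 to 1072 FPKM in WT and 559 to 588 in G9gl. Of 9 tested, 1 rose and 4 fell. Cd24a and Vpreb3, at means of 326 and 403 FPKM in WT, weigh most in this sum and fell 3.01-fold and 2.43-fold. Dtx1 and Cd1d1, also on this list, fell 1.88-fold and 1.34-fold (limma adjusted p 8.1e-05 and 0.012). S1pr3, a marginal zone marker, rose 1.74-fold (limma adjusted p 0.0041). Dendritic cell markers summed to 46.5 to 55.4 FPKM in WT and 68.1 to 72.7 FPKM in G9gl. Bst2 alone gave 42.2 to 52.7 FPKM of this in WT and 60.0 to 64.9 FPKM in G9gl. Of 4 tested dendritic cell markers 3 rose, Zbtb46, Bst2 and Cd209a, and 0 fell. Zbtb46, at 0.247 to 0.676 FPKM in WT and 1.48 to 2.41 FPKM in G9gl, reached the limit for testing only through its G9gl libraries. Cd209a, at 0.861 to 2.53 FPKM in WT and 2.80 to 4.15 FPKM in G9gl, reached it only with their help. Plasma cell markers summed to 336 to 360 and 355 to 383 FPKM. Of 6 tested, 2 rose, Jchain and Sdc1, and 1 fell, Irf4. Jchain, at 0.414 to 0.795 FPKM in WT and 5.43 to 6.98 FPKM in G9gl, reached the limit for testing only through its G9gl libraries. S100a8 rose 4.23-fold. The summed FPKM of 13 T and NK cell markers was 4.98 to 10.5 in all 6 libraries. Macrophages also express Egr and Nr4a genes, and the sort was for B220+ CD23hi cells. Of 17 macrophage markers 10 were tested, 8 of them rose and 0 fell, where 11.8% of all tested genes were called higher. Csf1r, at 0.736 to 1.21 FPKM in WT, and C1qa, at 0.352 to 1.57 FPKM, passed the limit for testing only with the help of their G9gl libraries. The summed FPKM of all 17 was 22.9 to 29.5 in WT and 58.1 to 64.8 in G9gl. None was at 0 in all libraries, though Cd163 and Marco were at 0 in some and at most at 0.103 FPKM. The part of macrophage transcripts in the rise of Egr1 and Egr2 was not tested. Depth was estimated at 10590000 to 12430000 fragments per library, so that 1 FPKM in a 2 kb transcript rests on about 18.2 to 21.4 fragments.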

How the data were processed

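RNA was measured in 3 WT and 3 G9gl libraries, grouped by the titles in the labels. Per the labels' protocols, RNA was extracted with Trizol, SMART-Seq HT served for cDNA and Nextera for the libraries, which hold no strand. The submitters' processing notes name the build mm10 and, of tools, Cufflinks 2.2.1, SAMtools 0.1.19, Bowtie2 2.2.3 and TopHat2 2.0.13. Each deposited table gives the authors' FPKM, 1 value per symbol, a unit read from these tools and the values. Which annotation was used, and whether libraries were scaled to each other, is not given in the sources used here. Immunoglobulin genes were not analysed here, so TPM values are shares of the other genes.

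Genes that reached 1 FPKM in 3 or more libraries were tested with limma 3.58.1 in R 4.3.3 (eBayes with a trend), fitting log2(FPKM + 1) to genotype alone. Fold changes are on that scale, which understates changes of low genes. Errors are SD over 3 libraries, or SE from limma. The fit was tested on simulated data. The 3 ratios were compared by exact permutation tests, two-sided. Fragment depth was estimated from the FPKM step that 1 fragment gives in genes with 1 transcript of at least 1500 bases, taking transcript length less 280 bases and a step between 0.06 and 0.14 FPKM times kb. Fragments are PCR products without molecular identifiers, so such figures cover counting error only. Gene positions, lengths and overlaps came from GENCODE vM21 (GRCm38), 1-based.

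The genes and the 15 lists beside them were chosen with earlier results of these data known. Named were all 9 genes, Egr4, up to 4 called genes per list and direction with the smallest p (every called gene where a count was 5 or fewer), and the 4 genes most like Egr2, Nr4a1 and Myc, leaving out predicted and small RNA genes. Other genes were named after their values were seen. Alternatives were other pseudocounts (0.1 and 0.5, and none for the ratios, the last chosen after seeing the data), no filter or one of 5 FPKM, quantile normalization, median-ratio scaling, TPM, library weights, a robust fit, the replicate number as a block, and each library left out in turn.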

Additional observations from a re-analysis of the deposited data

How the results depend on the processing

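Egr2 and Egr1 were called higher under all 16 alternatives, with log2 fold changes of 1.89 to 2.14 and 0.67 to 0.98. The number of the 7 tested genes called higher was 2 to 3 and the number lower 0 to 1 when 1 library was left out. The number lower was 0 with low genes kept and 2, Nab1 and Nab2, with TPM. Of all tested genes, TPM called 730 higher and 2497 lower, and leaving out 1 library gave 793 to 1076 higher and 689 to 1175 lower. The cause was not tested, except that TPM lowers G9gl values relative to WT by construction, since the G9gl totals are larger, and that leaving out a library leaves fewer samples. The direction of Egr3 turned with quantile normalization (0.022), library weights (0.0016) and without WT replicate 1 (0.066). That of Nr4a1 turned with library weights (-0.10), without WT replicate 3 (-0.019) and without G9gl replicate 1 (-0.43). None of these passed. With 1 library left out the values ran from -0.11 to 0.066 for Egr3 and from -0.43 to 0.52 for Nr4a1. The difference in log2 ratio was 1.03 to 1.36 for Egr2 to Egr1, 1.89 to 2.16 for Egr2 to Egr3 and -0.026 to 0.48 for Nab2 to Nab1 when 1 library was left out, negative for the last without G9gl replicate 2.

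Over all tested genes the replicate numbers showed no clear pairing. Deviations from the group means of same-numbered libraries correlated at 0.099, -0.069 and 0.021 over 10122 genes, and not every library correlated best with its own number. A pairing limited to some genes cannot be seen in such correlations and was not tested. With a replicate block 3 of the 7 genes were higher and 1 lower, and 1044 and 988 of all tested genes were. The block called 20 of the 44 early response genes higher, against 14 without it, and Dusp1, Cd69, Fos and Jun were among them.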
